A study of Mus musculus with 4 samples.

Results

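The *T*-positive, *Sox2*-low cells of day 4 gastruloids, labelled Brachyury-positive streak cells, were 532 of the 7202 cells kept at that day (7.39%, exact 95% interval 6.79 to 8.02). A kept cell held 2000 or more UMIs (unique molecular identifiers, each counting 1 captured transcript) and had a share of mitochondrial transcripts under 20%. A cell was selected when it held 3 or more UMIs of *T*, under 2 of *Sox2* and 0 of *Sox17*, so the members were chosen by measured values of these 3 genes, which describe the choice and are no finding. Gastruloids are aggregates of mouse embryonic stem cells that break symmetry and form germ layer derivatives in culture. Here all came from 1 stem cell line, Zx1, labelled wild type, had received a pulse of Chiron, an agonist of Wnt signalling, and were given bFGF, VEGF and ascorbic acid from day 4 to day 7, with collection of the day 4 cells before or after that addition not stated. Several gastruloids were pooled into 1 library for each of days 4, 5, 6 and 11. With 1 library per day there were no replicates, so no test was made and every interval covers counting error only.

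*T* encodes Brachyury, the T-box transcription factor that marks the primitive streak, the region of the embryo where epiblast cells lose their epithelial form and move inward to become mesoderm and endoderm. Wnt, Nodal and FGF signals start and maintain the streak, and Brachyury in turn keeps several of their genes active. Later in development *T* persists in the caudal epiblast and tailbud, which feed the elongating trunk, and in the notochord. Gastruloids grown after a Wnt pulse are known for a *T*-positive pole.

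The promoters of *T* and *Sp5* are shown because both genes are known targets of Wnt signalling, which acts through TCF/LEF factors. They are RefSeq windows of build GRCm38.p6, 250 bases before to 50 bases after a transcription start, printed 5′ to 3′ along the gene. The capitals mark the 7-base TCF/LEF letters CTTTGAT or CTTTGAA or their reverse complements ATCAAAG and TTCAAAG, searched on both strands. The window of *T* lies at chr17:8434173-8434472 on the plus strand, and that of *Sp5* at chr2:70474673-70474972 on the plus strand.
T: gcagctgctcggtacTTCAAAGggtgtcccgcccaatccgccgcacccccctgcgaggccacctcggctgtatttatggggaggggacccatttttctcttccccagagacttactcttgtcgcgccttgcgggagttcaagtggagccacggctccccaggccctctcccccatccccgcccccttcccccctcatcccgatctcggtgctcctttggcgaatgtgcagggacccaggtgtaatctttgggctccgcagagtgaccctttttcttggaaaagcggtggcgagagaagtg
Sp5: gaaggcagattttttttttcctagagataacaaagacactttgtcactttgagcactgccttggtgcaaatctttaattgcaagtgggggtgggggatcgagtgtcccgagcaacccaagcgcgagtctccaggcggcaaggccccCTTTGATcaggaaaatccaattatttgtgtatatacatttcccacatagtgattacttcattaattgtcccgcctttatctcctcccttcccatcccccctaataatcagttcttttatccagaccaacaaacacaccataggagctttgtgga
Of 22 genes looked up, *T*, *Sp5* and the 20 genes with the highest ratios in these cells, 12 had such a window, and *Fgf8*, *Lefty1* and *Fst* were among those without one. The 12 genes had 15 windows. TCF/LEF letters stood in 3 of these windows, those of *T*, *Sp5* and *Defa30*, beside 8.65% of all 32851 windows of this length. The T-box core TCACACC or its reverse complement GGTGTGA stood in none of the 12 genes' windows, beside 3.98% of all windows. A match describes letters in this stretch only.

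*T* ranged from 3 to 56 UMIs in the selected cells, with quartiles at 4, 6 and 10. 103 cells stood at the limit of 3 UMIs and 151 held 10 or more. *Sox2* was at 0 in 417 cells and at 1 in 115. Together the 532 cells held 49.1% of all *T* UMIs of the day. Of the 850 cells with 3 or more *T* UMIs, 213 were left out for *Sox2* alone and 105 for *Sox17*. The selected cells were not deeper than the rest, with a median of 24063 UMIs and 4641 genes against 25403 UMIs and 4713 genes in the other 6670 cells. Their median mitochondrial share was 2.91% against 2.26%. The 4 libraries had medians of 12082 to 28400.5 UMIs per kept cell and shared 5 to 23 barcodes with each other.

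Of the genes that mark the streak, *Fgf8* and *Fst* had higher levels in the selected cells, while *Eomes* and *Mesp1* did not. Levels are given as CPM, the UMIs of a gene summed over a set of cells in each 1000000 UMIs of that set, and a ratio is the level in the selected cells over that in all other day 4 cells. *Mesp1*, which marks nascent mesoderm as it leaves the streak, was at 165.5 CPM against 164.8. *Eomes*, a T-box factor of the early and anterior streak, was at 25.4 CPM against 58.2, a ratio of 0.436. *Mixl1*, a homeobox gene of the streak, was at 30.9 CPM against 20.3. After each cell had been thinned at random to 5000 UMIs, 7.14% of the selected cells held *Eomes* and 16.6% of the others. Since these values go against the label in part, the cells are called by their rule below.

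A gene was called higher or lower when its ratio, with 10 CPM added on both sides, was 2 or more or 0.5 or less, among 7553 genes with 10 CPM or more in either set. On that rule 0.741% of the genes were higher (56, or 55 without *T*) and 0.569% lower (43, or 41 without *Sox2* and *Sox17*), and the median ratio over all genes was 0.987. These calls come from the cells the rule chose and are a description. Of the 4 markers given for these cells beside *T*, 3 were called higher, *Fgf8*, *Lefty1* and *Fst*, with *Sp5* just under the limit (1.97 with 10 CPM added). At a limit of 1.5 times, 2.44% of all genes were higher and 1.65% lower, and all 4 markers were higher.

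**Figure D1:**
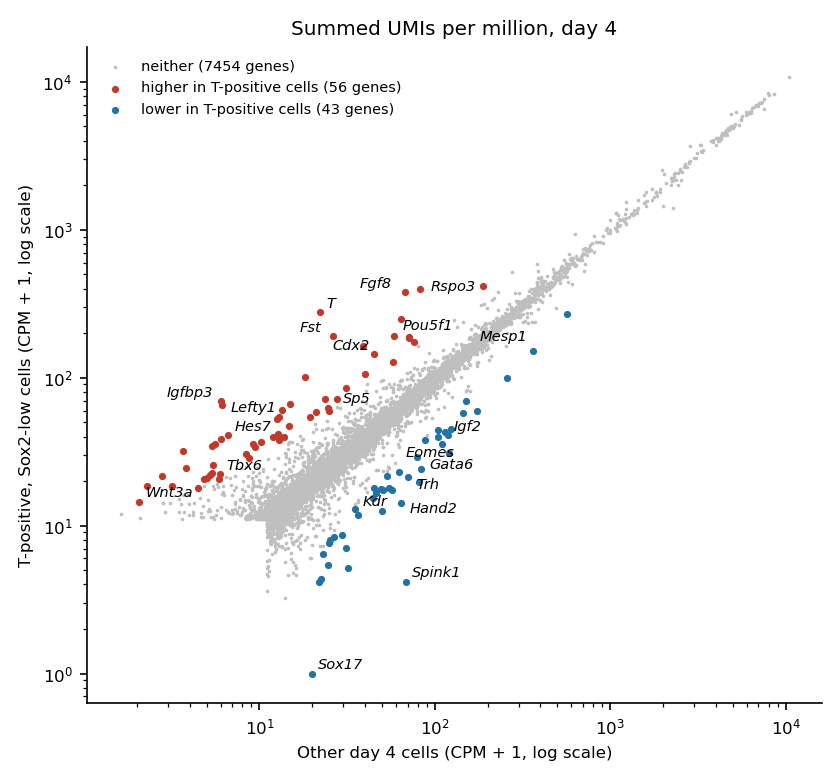
Level of each of the 7553 genes in the 532 T-positive, Sox2-low cells (vertical) and in the other 6670 day 4 cells (horizontal), as CPM plus 1 on log scales; each point is a gene, with 56 called higher in red and 43 called lower in blue. Most genes lie on the diagonal, *Fgf8*, *Fst* and *Rspo3* stand above it and *Spink1* and *Hand2* below it.

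*Fst* (chr13:114452290-114458951, minus strand, mm10) encodes follistatin, a secreted antagonist of activin and BMP. It was at 189.6 CPM (exact 95% Poisson interval 182.9 to 196.5) in the selected cells and 25.2 CPM in the others, a ratio of 7.53 (7.19 to 7.87). At least 1 UMI was held by 78.6% of the selected cells and 29.1% of the others, and after thinning by 45.9% and 9.34%. Cells of other types gave lower shares, 4.24% in the 637 cells with 20 or more *Hand1* UMIs and neither *T* nor *Sox17*, and 3.28% in the 305 cells with 3 or more *Sox17* UMIs and no *T*. These sets, used as background throughout, had medians of 49462 and 28340 UMIs.

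*Fgf8* (chr19:45736798-45742915, minus strand), the FGF ligand that streak cells need in order to move away, was at 378 CPM against 66.6, a ratio of 5.67 (5.50 to 5.84). It was held by 92.5% of the selected cells and 41.2% of the others, and after thinning by 73.9% and 20.2%. It was not absent elsewhere, since 34.1% of the *Sox17*-high cells and 4.55% of the *Hand1*-high cells held it. *Lefty1* (chr1:180935022-180938400, plus strand), a feedback inhibitor of Nodal, was at 64.0 CPM against 5.11, a ratio of 12.5 (11.5 to 13.7), but in few cells, 29.1% against 4.11% and, after thinning, 16.0% against 1.40%. *Sp5*, a zinc finger gene downstream of Wnt, was at 62.1 CPM against 26.7, a ratio of 2.33 (2.17 to 2.49). It was in 57.9% of the selected cells and 32.1% of the others, and after thinning in 25% and 10.6%, beside 15.4% of the *Sox17*-high cells.

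The number of these markers detected per cell varied, and detection after thinning misses part of the cells that hold a gene. After thinning, 63 of the 532 selected cells held none of *Fgf8*, *Sp5*, *Lefty1* and *Fst*, 192 held 1 of them, 181 held 2, 83 held 3 and 13 held all 4. Among the other cells 68.0% held none and 0.105% all 4.

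**Figure D2:**
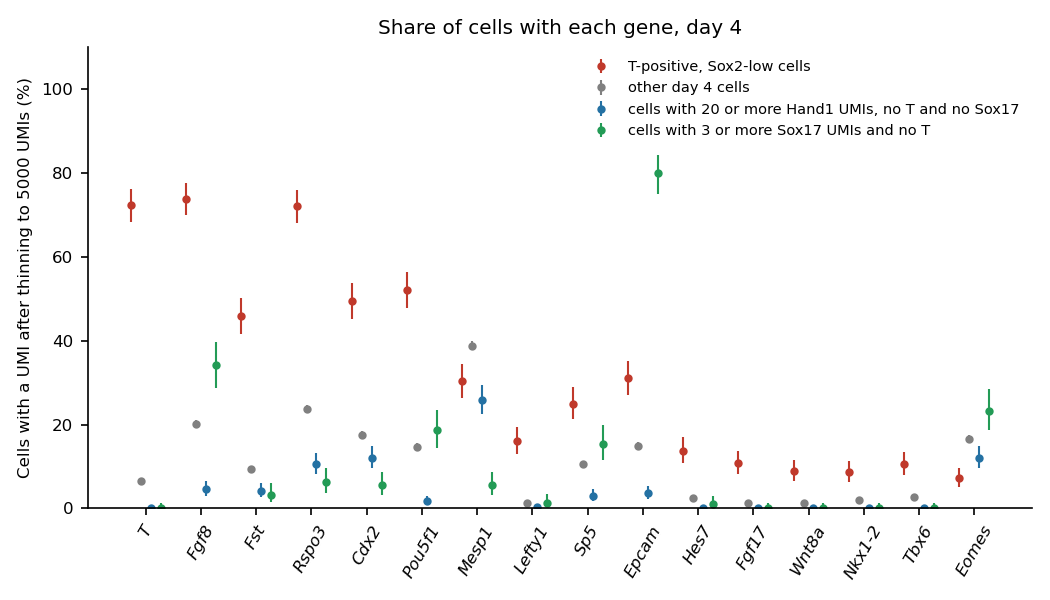
Percent of cells holding at least 1 UMI of each gene after thinning to 5000 UMIs, with exact 95% intervals, in the T-positive, Sox2-low cells, the other day 4 cells and the 2 background sets. *Fgf8* (73.9%) and *Rspo3* (72.2%) are in most T-positive, Sox2-low cells, while *Eomes* (7.14%) is in fewer than in the other cells (16.6%).

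Among the Wnt ligands 3 of 6 compared were called higher, with a median ratio of 1.84 over the 6. *Wnt3a*, the ligand of the caudal streak, was at 13.6 CPM against 1.07, a ratio of 12.7 from 213 UMIs. *Wnt8a* was at 17.6 CPM against 2.18 and *Wnt5b* at 35.7 against 9.23. *Wnt3*, which starts the streak, was at 29.5 CPM against 15.9 and was not called.

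Of 8 receptors and R-spondins compared, 2 were called higher. *Rspo3* encodes a secreted enhancer of Wnt signalling and was at 396 CPM against 81.6, a ratio of 4.86 (4.72 to 5.00). *Fzd10*, a Frizzled receptor of the streak, was at 59.0 CPM against 12.5. Of 8 transcriptional effectors and targets compared apart from *T*, 1 was called higher, *Cdx1*, at 53.4 CPM against 11.9, and the median ratio of the 8 was 1.30. *Sp5* and *Cdx4* (11.3 CPM against 1.90) are in this list and were not called. *Axin2*, the widely used feedback target, was at 41.9 CPM against 30.04, and *Lef1* at 111.4 against 83.1. None of 4 secreted inhibitors was called, with *Dkk1* at 19.98 CPM against 30.4.

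In the Nodal pathway 3 of 8 targets and inhibitors compared were called higher, *Lefty1*, *Lefty2* and *Fst*, and the median ratio of the 8 was 1.41. *Lefty2* was at 65.0 CPM against 13.9, a ratio of 4.66 (4.34 to 5.01). *Smad7*, an intracellular inhibitor in the same list, was at 72.4 CPM against 88.7. None of 5 ligands, co-receptors and receptors compared was called. *Nodal* itself was at 19.9 CPM against 8.11, *Tdgf1*, which encodes its co-receptor Cripto, at 84.2 against 57.1, and the related co-receptor gene *Cfc1* at 79.9 against 156.8.

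In the FGF group 2 of 6 ligands compared were called higher, *Fgf8* and *Fgf17*, the latter at 23.6 CPM against 2.79, and the median ratio of the 6 was 1.40. *Fgf4* was at 12.9 CPM against 2.98 and was not called, and *Fgf10* was at 11.1 against 25.8. Neither of 2 receptors compared was called. Of 9 feedback and target genes compared, 1 was called higher, *Dusp6*, which encodes a phosphatase that limits ERK signalling, at 38.5 CPM against 12.8. The median ratio of the 9 was 1.33.

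Genes of BMP and of lateral mesoderm were on the low side. In the BMP group 2 of 11 were called lower and none higher, with a median ratio of 0.711. *Bmp4* was at 22.1 CPM against 61.2 and *Msx2*, a target, at 37.2 against 86.4. *Id1*, also a BMP target, went the other way at 520 CPM against 274.7 without being called. Among retinoic acid genes, *Crabp2*, whose product binds retinoic acid inside the cell, was called higher at 70.8 CPM against 22.7. *Aldh1a2*, which makes retinoic acid, was at 32.8 CPM against 49.7.

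Caudal genes formed the group with the largest count of calls. In the list of neuromesodermal and caudal genes, 7 of 11 were called higher with a median ratio of 2.13, and the list shares *Fgf8*, *Cdx1*, *Cdx2* and others with lists above. *Cdx2*, which specifies posterior identity, was at 143.7 CPM against 43.8, and *Nkx1-2*, a homeobox gene of the caudal epiblast, at 19.9 against 4.01. Among 13 streak transcription factors compared, *T* not counted, 4 were called higher, *Cdx1*, *Cdx2*, *Sp8* and *Tbx6*, and *Tbx6* lost its call with a *T* limit of 5 UMIs, with members chosen after thinning and with the mean of CPM per cell. *Tbx6*, which directs cells to presomitic mesoderm, was at 21.4 CPM against 4.99 and was in 10.5% of thinned selected cells and 2.85% of the others.

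Of 8 presomitic and Notch genes compared, 4 were called higher, *Tbx6*, *Rspo3*, *Hes7* and *Dll3*. *Hes7*, the oscillating repressor of the segmentation clock, was at 40.0 CPM against 5.62, a ratio of 7.12. *Msgn1*, the next step toward presomitic mesoderm, reached 2.55 CPM and was under the limit for comparison. *Pou5f1*, which encodes the pluripotency factor Oct4, was the 1 gene called higher of 13 pluripotency genes when compared with all other day 4 cells. It was at 191.1 CPM against 57.7, a ratio of 3.31 (3.18 to 3.45). *Nanog* was at 16.0 CPM against 9.72, and the naive gene *Klf2* was called lower at 5.47 against 22.1 in all other day 4 cells. Those other cells include cells with more *Sox2*. Under the same *Sox2* and *Sox17* limits, *Klf2* was at 1.49 CPM in cells with no *T* UMI and 3.53 at 2 *T* UMIs. Both levels were below the selected cells, and the part of the *Sox2* limit in this call was not tested. Further pluripotency genes were also lower in those cells with no *T* UMI than in the selected cells. *Nanog* was at 1.47 CPM there against 16.0, *Dppa5a* at 38.4 against 204 and *L1td1* at 5.08 against 61.3. *Utf1* was at 2.28 CPM against 14.8 and *Zfp42* at 2.07 against 11. *Klf4* and *Otx2* went the other way.

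The genes with the highest ratios by the naming rule held further names beyond these pathways. *Igfbp3*, which encodes a binding protein of insulin-like growth factors, was at 68.1 CPM against 5.03, a ratio of 13.5 (12.4 to 14.7), and was in 21.8% of thinned selected cells against 2.12%. The calcium-binding protein gene *S100a11* was at 250.2 CPM against 63.6. *Sema6a*, a transmembrane semaphorin, was at 51.4 CPM against 11.6, *Stmn2*, a tubulin-binding protein, at 104.8 against 39.1, *Bst2* at 84.5 against 30.2 and *Grsf1* at 185.1 against 70.1.

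Reads of 3 further leading genes can be shared with other loci. *Defa30* (100.6 CPM against 17.3) has near-identical defensin paralogs, and *Psme2* (186.4 against 69.9) has a near-identical copy. *Hoxaas3* (162.6 against 37.9) is an antisense transcript within the *HoxA* cluster, and the strand setting of the counting is not given in the sources used here. These values are uncertain for that reason.

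Of the 10 lowest genes by the naming rule, *Hand2* and *Gata6* are in the cardiac and lateral mesoderm list, *Kdr* in the endothelial list and *Trh* in the endoderm list. *Hand2* was at 13.2 CPM against 63.4, *Gata6* at 23.1 against 82.6 and *Kdr*, which encodes a VEGF receptor of vascular progenitors, at 16.5 against 56.2. *Asb4* was at 29.97 CPM against 120.1, *Nrp1* at 18.6 against 80.3, *Pmp22* at 34.7 against 109.2, *Igf2* at 40.1 against 117.3 and the keratin gene *Krt18* at 58.9 against 173.3. *Spink1* (3.18 CPM against 67.4) and *Trh* (20.4 against 69.0) depended on the *Sox2* and *Sox17* limits, whose parts were not told apart. When the other cells were held to the same *Sox2* and *Sox17* limits, the ratio of *Spink1* went from 0.0472 to 1.62 and that of *Trh* from 0.295 to 2.75.

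Markers of the other cells that day 4 gastruloids could hold were examined as whole lists. Of 10 cardiac and lateral mesoderm genes, 5 of 7 compared were called lower, *Hand1*, *Hand2*, *Myl7*, *Gata6* and *Foxf1*, and their summed level was 195.7 CPM against 556.1. The 8 endothelial genes summed to 41.7 CPM against 86.7, with *Sox7* at 0 in the selected cells. The 6 endoderm genes summed to 33.5 CPM against 105.2, *Sox17* being 0 by the rule. That limit left cells with *Sox17* among the other cells only, so these sums compare unlike sets. In cells under the same *Sox2* and *Sox17* limits with no *T* UMI, *Trh* was at 6.77 CPM against 20.4 in the selected cells. *Foxa2* was at 0.400 CPM there against 8.97, and *Cer1* did not differ (0.319 against 0.318). The 6 neural genes summed to 31.9 CPM against 11.4, of which *Sox3* made up 15.1 CPM against 2.91.

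The 6 node and notochord genes summed to 20.2 CPM against 17.7. *Noto*, the defining gene of the node, had 7 UMIs in 5 selected cells, and *Shh* 27 UMIs in 11. *Noto* was at 0.445 CPM against 0.0142 in the other cells and *Shh* at 1.72 against 0.170. *Foxj1* was at 2.61 CPM against 0.633 and *Chrd* at 2.55 against 0.926. *Foxa2* (8.97 against 10.2) and *Nog* (3.94 against 5.78) had the highest levels of the list and went the other way. All but *Foxa2* were under the limit for comparison. Of 6 germ cell genes none of 3 compared was called, with *Dppa3* at 2.23 CPM against 12.9. In cells under the same *Sox2* and *Sox17* limits with no *T* UMI, *Dppa3* was at 0.474 CPM. In the extraembryonic list only *Cdx2* was called, and *Afp*, *Apoa2* and *Elf5* were at 0. All 10 S phase genes and all 10 mitosis genes were neither higher nor lower, at summed levels of 1115 against 1148 CPM and 1837 against 1843 CPM. The same was true of 5 stress genes compared.

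The summed levels of *Fgf8*, *Fst* and *Lefty1* rose with *T* on both sides of the limit. Sums over cells cannot tell a continuous change from a mixture of cells with high and low levels, and this was not tested. Cells that met the *Sox2* and *Sox17* limits with 0, 1, 2 and 3 *T* UMIs numbered 4561, 593, 178 and 103, with 429 above 3. *Fgf8* stood at 33.4, 78.5, 194.0, 252.6 and 406.9 CPM over these sets, and *Fst* at 15.1, 27.0, 61.3, 89.8 and 212.9. *Lefty1* stood at 1.05, 3.35, 14.1, 40.7 and 69.4. For these 3 genes the cells at 2 UMIs, just outside, and at 3 UMIs, just inside, both lay between the cells without *T* and those above 3, and the step between them was largest for *Lefty1* as a ratio and for *Fgf8* in CPM.

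*Mesp1* did not follow that order. Its level was 194.4, 214.4, 242.6, 227.7 and 151.0 CPM from 0 *T* UMIs to over 3, with the top at 2. *Eomes* stood at 63.4, 68.0, 62.9, 45.1 and 20.8 CPM and *Hand1*, a basic helix-loop-helix gene of lateral mesoderm, at 329.6, 252.7, 169.1, 144.3 and 88.2. The median depth of the 5 sets was between 21859 and 26372 UMIs.

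**Figure D3:**
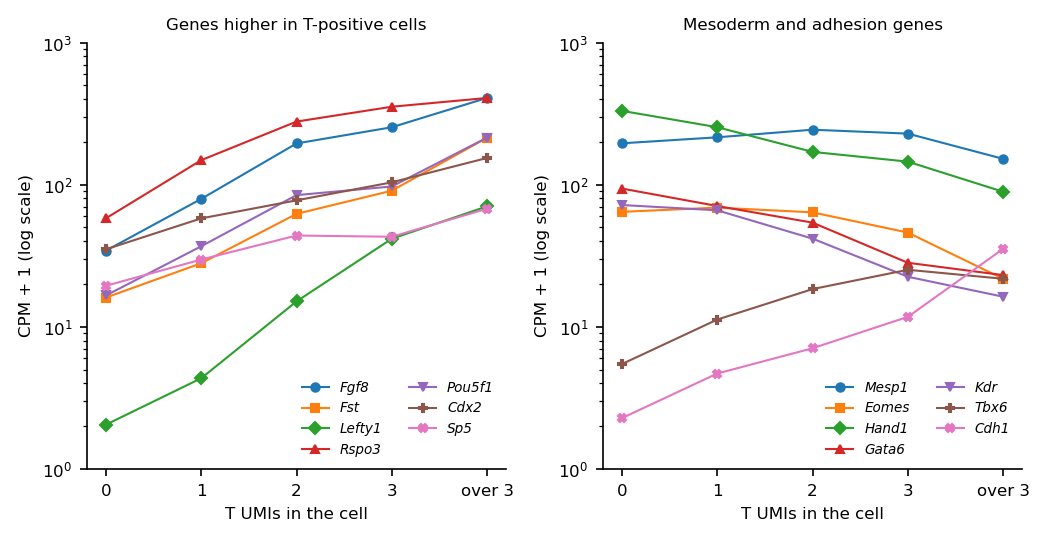
CPM plus 1 (log scale) of 14 genes in day 4 cells with under 2 Sox2 UMIs and no Sox17, by the number of T UMIs in the cell; each point is the summed level of a set of 4561, 593, 178, 103 or 429 cells. *Fgf8*, *Fst* and *Lefty1* are higher at each step, while *Mesp1* is highest at 2 T UMIs.

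Among the selected cells, the level of *T* went with graded differences in some adhesion, pluripotency and mesoderm genes. The 532 cells were ranked by their own *T* CPM and split into low-T, middle-T and high-T groups of 178, 177 and 177 cells, with median *T* levels of 131.1, 255.7 and 539.7 CPM. These groups are ranges of 1 scale and not types, and 24, 41 and 25 of their cells lay within 10% of a cut. Of 7685 genes, 0.872% (67) were 2 or more times as high in the high-T group as in the low-T group and 0.781% (60) were at 0.5 times or less, with 10 CPM added.

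Of 13 adhesion genes compared, 4 were called higher in the high-T group and 3 lower, with a median ratio of 0.911. *Cdh1*, which encodes E-cadherin, was at 14.0, 30.2 and 56.9 CPM in the low-T, middle-T and high-T groups, and *Epcam* at 46.3, 90.7 and 158.5. *Cldn6* and *Cldn7*, which encode tight junction claudins, were called too. Of 9 pluripotency genes compared, *Pou5f1* (106.7, 214.4 and 310.7 CPM) and *L1td1* (25.6, 67.2 and 116.3 CPM) were called higher. *Nanog* was at 10.1, 15.1 and 27.4 CPM.

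Of 5 Wnt ligands compared 3 were called higher, and of 6 FGF ligands *Fgf8* was called higher and *Fgf10* lower. *Fst* was at 84.0, 202.3 and 357.4 CPM, a ratio between the outer groups of 4.25 (3.86 to 4.69), and *Igfbp3* at 17.4, 75.1 and 147.6, a ratio of 8.47 (6.96 to 10.4). *Fgf8* was at 220.9, 435.6 and 583.4 CPM and *Lefty1* at 30.7, 78.8 and 104.8. *Wnt3a* went from 5.38 to 24.2 CPM and *Wnt8a* from 9.21 to 29.6. *Rspo3* was not called, at 342.9, 441.0 and 437.8 CPM, and neither was *Lefty2*, at 59.1, 64.8 and 75.5.

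*Foxa2*, a forkhead factor of the anterior streak, node and endoderm, was low throughout but at 2.69, 8.54 and 20.3 CPM across the groups, a ratio of 7.53 (4.53 to 13.1). It was in 12.03% of all selected cells before thinning and 3.76% after, beside 40.3% of thinned *Sox17*-high cells.

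Of 11 streak transcription factors compared, *Foxa2* and *Sp8* were called higher and *Mesp1* and *Eomes* lower. *Mesp1* was at 207.6, 169.9 and 87.9 CPM in the low-T, middle-T and high-T groups, and *Eomes* was also called lower in the high-T group, at 37.3 against 12.2 CPM in the outer groups. *Fn1*, which encodes fibronectin, fell in the same order at 360.8, 175.6 and 99.2 CPM, and *Twist1* and *Cdh11* were called lower. *Snai1*, the repressor of E-cadherin, was at 60.2 CPM in the low-T group and 29.1 in the high-T group and was not called. *Vim*, in the same adhesion list, went the other way at 380.2, 468.2 and 538.2 CPM without being called. *Cdh2* (93.7 and 71.3 CPM in the outer groups) and *Zeb2* (35.6 and 31.5) were not called either.

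Of 7 cardiac and lateral mesoderm genes compared, 4 were called lower in the high-T group, *Hand1* (158.4, 69.2 and 29.1 CPM), *Hand2*, *Gata6* and *Foxf1*. *Kdr* was at 29.0 CPM in the low-T group and 2.69 in the high-T group. The retinoic acid genes *Crabp1* (148.8, 55.0 and 15.6 CPM) and *Aldh1a2* (53.8, 24.3 and 6.11 CPM) and the chromatin gene *Hmga2* (428.6, 188.6 and 81.6 CPM) were in the same class. In the lists of other cells, *Foxa2*, the neural gene *Sox3* and the germ cell gene *Dnd1* were called higher and *Kdr* and *Etv2* lower, and their part in these differences was not tested. No S phase, mitosis or stress gene was called.

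The low-T group was deeper, at a median of 34673.5 UMIs against 22306 and 20526, and a cell with more UMIs meets the limit of 3 at a lower CPM. The comparison was repeated on the 303 selected cells with 15000 to 30000 UMIs, and without the 63 selected cells among the 8% of day 4 cells with the highest doublet scores. In the first the outer groups had medians of 22093 and 20110 UMIs, and the ratios of high-T to low-T were 3.69 for *Cdh1*, 3.06 for *Fst*, 4.64 for *Igfbp3*, 0.313 for *Mesp1*, 0.152 for *Hand1* and 0.0971 for *Crabp1*. In the second they were 3.67, 4.27, 8.23, 0.406, 0.146 and 0.085. Between cells of like depth the calls numbered 45 higher and 44 lower, against 67 and 60. Of 36 genes followed, 15 were called higher and 12 lower in the whole set, and at this depth 6 and 3 of these lost their call. *Fgf8* went to a ratio of 1.86, *Lefty1* to 2.03, *Epcam* to 2.14 and *Wnt8a* to 1.79, and *Cldn7*, *Sox3*, *Kdr*, *Twist1* and *Eomes* lost theirs too. Without the highest doublet scores only *Wnt8a* and *Eomes* did so among the 36.

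**Figure D4:**
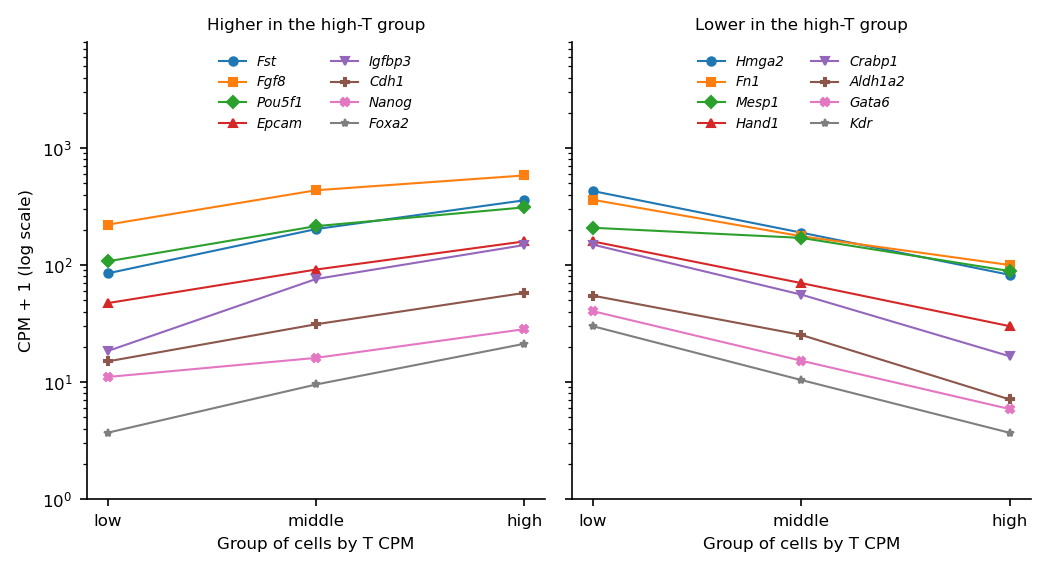
CPM plus 1 (log scale) of 16 genes in the T-positive, Sox2-low cells split into 3 groups by their own T level (178, 177 and 177 cells). Left, *Fst*, *Cdh1* and *Foxa2* and 5 others stand higher in the high-T group; right, *Mesp1*, *Hand1* and *Kdr* and 5 others stand lower.

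The selected cells also differed in which second gene they held. After thinning, 263 held *Cdx2*, 277 *Pou5f1*, 161 *Mesp1*, 56 *Tbx6* and 38 *Eomes*. *Eomes* and *Cdx2* seldom met, since *Cdx2* was in 5 of 38 *Eomes*-positive cells (13.2%, exact 95% interval 4.41 to 28.1) and 258 of 494 *Eomes*-negative cells (52.2%, 47.7 to 56.7). *Pou5f1* was in 50.2% of *Cdx2*-positive and 53.9% of *Cdx2*-negative cells, with intervals that overlap.

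The 38 *Eomes*-positive cells held more of several early streak and mesoderm genes. *Gsc*, a homeobox gene of the anterior streak, was at 34.8 CPM in them and 3.23 in the other selected cells, *Mixl1* at 103.0 and 23.3, *Lhx1* at 147.2 and 55.7, and *Kdr* at 72.9 and 10.5. The caudal genes were lower, *Cdx1* at 7.36 against 58.2 CPM, *Wnt8a* at 2.01 against 19.3 and *Fgf17* at 1.34 against 25.9. *Lefty1* was at 8.03 CPM against 69.9. Their median depth was 30868 UMIs against 23682.5, and such a small number of cells sets these values.

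The *Cdx2*-positive and *Cdx2*-negative cells had median depths of 22367 and 26850 UMIs. *Fgf17* was at 37.7 CPM against 11.6 in the *Cdx2*-negative cells, *Hes7* at 60.3 against 22.8, *Nkx1-2* at 30.2 against 11.1 and *Cdx1* at 77.1 against 33.3. The *Pou5f1*-positive cells (median 22316 UMIs, against 27157) held more *Dppa5a* (354.3 against 69.2 CPM), *Utf1* (28.0 against 3.02 CPM), *Nanog* (29.2 against 4.22 CPM) and *Epcam* (140.0 against 42.2 CPM), and less *Cdx4* (2.96 against 18.8 CPM). In the 56 *Tbx6*-positive cells the Notch ligand gene *Dll1* was at 40.6 CPM against 15.6 and *Cited1* at 202.6 against 75.9, while *Epcam* was at 41.8 against 94.1.

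Rank correlations between 13 such genes over the 532 thinned cells were weak. The largest was 0.312 between *T* and *Fst*, and the next 0.293 between *Fgf8* and *Rspo3*. The points share a library and hold few UMIs per gene, and nothing is read from them.

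A set of *T*-positive cells that the rule left out and 2 sets of mesoderm cells were compared with the selected cells, in each of which the limits on the choosing genes fix those genes. The 213 cells with 3 or more *T* UMIs, 2 or more *Sox2* UMIs and no *Sox17* gave the fewest calls, the selected cells being higher for 2 genes (0.0265% of 7547) and lower for 41 (0.543%). The *Sox2*-positive cells held more of several pluripotency genes. *Dppa5a* was at 1198 CPM against 204.0 in the selected cells, *Zfp42* at 90.7 against 11.0, *Utf1* at 104.8 against 14.8 and *Klf2* at 86.9 against 5.47. *Fgf5* (5.31 against 5.98 CPM) and *Lin28a* (122.2 against 128.9) were not higher there. *Fgf8*, *Fst* and *Lefty1* were near the selected cells at 304.4, 163.0 and 59.2 CPM. Several caudal genes were as high or higher there, *Cdx2* at 144.4 CPM against 143.7 and *Cdx1* at 71.9 against 53.4. *Nkx1-2* was at 30.3 CPM against 19.9 and *Fgf17* at 35.6 against 23.6. *Wnt8a* (16.3 against 17.6), *Cdx4*, *Evx1*, *Greb1* and *Cyp26a1* were lower there. *Mesp1* was at 72.6 CPM in the *Sox2*-positive cells, and their median depth was 38879 UMIs.

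The 1039 cells with 2 or more *Eomes* UMIs, 3 or more *Mesp1* UMIs, under 3 *T* UMIs and no *Sox17* gave more calls. The selected cells were higher for 2.01% of genes (153 of 7596) and lower for 0.974% (74). *Fst* was at 20.3 CPM in that set, *Fgf8* at 50.8, *Cdx2* at 11.3, *Pou5f1* at 17.7 and *Lefty1* at 1.12, while *Kdr* was at 130.1, *Myl7* at 127.4 and *Asb4* at 234.3.

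The 105 presomitic cells had 2 or more *Tbx6* UMIs, at least 1 UMI of *Msgn1* or *Dll1*, under 3 of *T* and none of *Sox17*. The selected cells were higher for 0.87% of 7584 genes (66) and lower for 0.382% (29). *Rspo3* was at 575.1 CPM in the presomitic cells and *Cdx2* at 107.0, while *Epcam* (11.5 CPM), *Lefty1* (4.53) and *Igfbp3* (5.23) were low there. *Aldh1a2* was at 139.8 CPM and *Cited1* at 285.8. *Tbx6* and *Dll1* chose that set and are no comparison.

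The same 3 limits found fewer cells later. They passed 172 of 7408 cells at day 5 (2.32%, 1.99 to 2.69), 56 of 5850 at day 6 (0.957%, 0.724 to 1.24) and 0 of 8730 at day 11, which allows a share of up to 0.0344% at the limit of 3 counts (exact upper bound 0.0422%). At day 11 *T* had 1 UMI in all. The day 11 cells were shallower, at a median of 12082 UMIs, and the day 6 cells that passed were deeper than the rest, at 37647.5. With 1 library a day, the day and the library cannot be told apart.

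Cells that passed at day 5 and day 6 had other companions of *T*. *Fst* was at 189.6, 19.95 and 16.7 CPM in the passing cells of days 4, 5 and 6, *Lefty1* at 64.0, 7.09 and 1.25, *Pou5f1* at 191.1, 49.0 and 11.7 and *Mesp1* at 165.5, 47.2 and 3.76. *Fgf8* was at 377.7, 127.7 and 279.8 CPM and *Sp5* at 62.1, 35.4 and 131.1, both highest or lowest without an order in time. *Epcam* was at 88.4, 123.6 and 5.01 CPM.

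Several presomitic and caudal genes were highest on day 6 in the passing cells. *Hes7* was at 40.0, 30.8 and 286.9 CPM over the 3 days, *Fgf17* at 23.6, 36.4 and 187.5, *Tbx6* at 21.4, 3.36 and 78.1 and *Dll1* at 18.3, 4.29 and 53.5. *Cdx4* was at 11.3, 0 and 57.6 CPM. *T* itself, which the limits select, was at 275.2, 159.6 and 182.5 CPM.

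**Figure D5:**
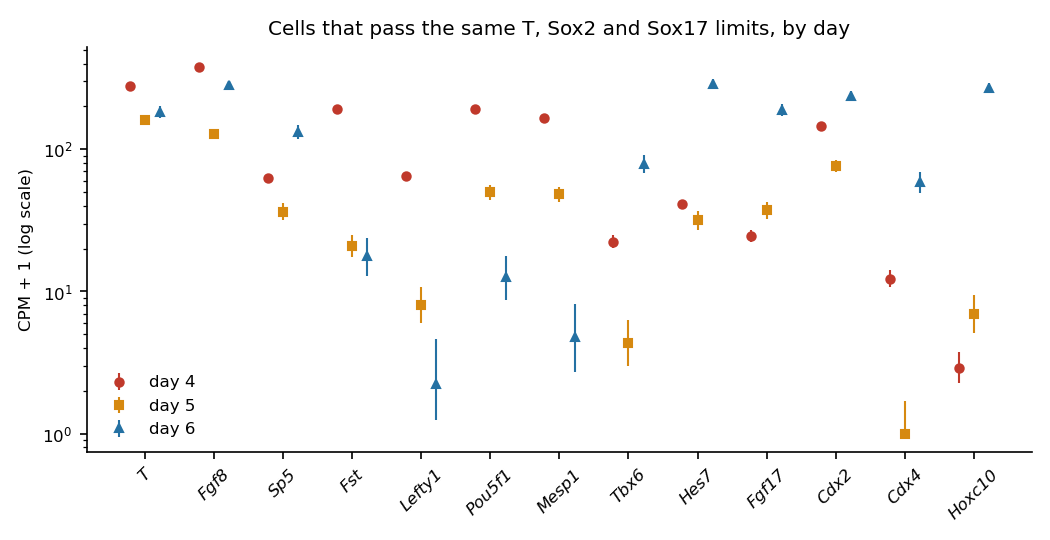
CPM plus 1 (log scale) of 13 genes in the cells that pass the same T, Sox2 and Sox17 limits at day 4 (532 cells), day 5 (172) and day 6 (56), with exact 95% Poisson intervals that cover counting error. *Fst*, *Lefty1*, *Pou5f1* and *Mesp1* are highest at day 4, while *Hes7*, *Fgf17*, *Cdx4* and *Hoxc10* are highest at day 6.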

How the data were processed

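Single cells of gastruloids were profiled with a droplet 3′ kit (10X Genomics), with 1 library per day. The authors deposited a matrix of raw UMI counts for each library, limited to barcodes called as cells. The submitters' processing notes name Cell Ranger 3.1.0 and build mm10, whereas the day 11 matrix header names 6.0.1. The strand setting is not given in the sources used here. Day 4 held 7324 barcodes and 227398362 UMIs, and 7202 cells passed the limits on UMIs and mitochondrial share. No doublet filter was used in the main values.

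Counts were summed over cells and scaled to CPM. With 1 library per day no test was made. Intervals are exact Poisson for CPM, exact Clopper-Pearson for shares and exact conditional binomial for ratios, at 95%. Shares were also computed after thinning to 5000 UMIs, which left out 30 of the other cells. Doublet scores were the share of simulated doublets among nearest neighbours. The scripts (Python 3.11.15, numpy 2.4.6, scipy 1.17.1) were tested on simulated data. Gene coordinates are from the GENCODE annotation of GRCm38 (mm10).

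The named genes were the given markers, the 20 highest ratios with 50 CPM or more in the selected cells, the 10 lowest with 50 CPM or more in the others, and the genes of 28 lists of pathways and cell types, with mitochondrial, ribosomal and selecting genes left out. Members and lists were chosen with earlier results of these data known. Genes given for the groups by *T* level and for splits among the selected cells were chosen after their values were seen.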

Additional observations from a re-analysis of the deposited data

How the results depend on the processing

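No paired analysis was possible because each day has 1 library, and no library could be left out. The share of *T*-positive cells was 9.86% with a *T* limit of 2 UMIs, 5.04% with a limit of 5 and 5.03% when cells were thinned to 10000 UMIs before the limits, against 7.39%, and it moved by less than its interval under the stricter cell filter and without the 8% highest doublet scores. Against 56 genes higher and 43 lower, 108 and 82 were called with members chosen after thinning to 10000 UMIs, 147 and 100 with 1 CPM added, and 28 and 24 among genes of 50 CPM or more. Compared with other cells under the same *Sox2* and *Sox17* limits, 108 were higher, and the cause of these shifts was not tested. In that comparison *Spink1* reversed to a ratio of 1.62 and *Trh* to 2.75. The other counts stayed within 1.5 times. Outside the limit of 50 CPM, which removes genes, each alternative that recalled genes kept at least 55 of the 56 higher genes, without *Tbx6* in 3 of them and *Cdkn1a* in 1. The lower genes were kept less fully. Of the 43, 34 stayed lower against other cells under the same *Sox2* and *Sox17* limits. With members chosen after thinning to 10000 UMIs 37 stayed lower, and with all cells thinned to 5000 UMIs also 37. With a ratio limit of 1.5, 40 of 154 list genes were higher and 28 lower, against 21 and 12. Of 320 ratios of named genes, 163 moved beyond their counting interval and 2 reversed. Of 16 shares of positive cells, 15 moved when 2 UMIs were asked for or cells were thinned to 10000 UMIs. The 2 alternatives for the groups by *T* level were added after the data were seen. Genes under about 10 CPM and sets under 60 cells, such as the *Eomes*-positive and day 6 cells, rest on few UMIs.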

Other observations

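The *Hox* genes were added to the lists after the data were seen. Of 39 *Hox* genes of the 4 clusters, 15 had 10 CPM or more in either set, and 1 was called higher in the *T*-positive, *Sox2*-low cells of day 4, *Hoxb8*, at 32.8 CPM against 8.40 in the other cells (ratio 3.91, 3.53 to 4.31). The median ratio of the 15 was 1.58, against 0.987 over all genes, and 5 of the 39 had no UMI in these cells. *Hoxb1*, an early gene of the series, was at 86.7 CPM against 70.5, *Hoxb9* at 27.1 against 10.2 and *Hoxd9* at 28.1 against 13.1. None of 18 *Hox* genes compared was called between the high-T and low-T groups, where *Hoxb9* was at 26.6 and 26.4 CPM.

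In the cells that passed the same limits, *Hoxc10* was at 1.91, 5.97 and 271 CPM at days 4, 5 and 6, *Hoxd10* at 0.382, 2.61 and 32.6 and *Hoxa9* at 10.8, 42.0 and 109.4. *Hoxb8* was at 32.8, 89.1 and 82.7 CPM. In the other cells of day 6, *Hoxc10* was at 41.0 CPM and *Hoxb8* at 36.2. Within the day 4 cells, *Hoxc9* was at 2.29 CPM where *Pou5f1* was held after thinning and 16.4 where it was not, and *Hoxd9* was at 12.6 and 41.9.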
